A study of Mus musculus with 16 samples.

Results

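The genes of the major histocompatibility complex (MHC) and of antigen processing were 47 of the 23935 gene symbols measured by RNA-seq in whole mouse kidneys. They were taken by name: every symbol that begins with H2-, the prefix of the mouse MHC, together with B2m, Cd74, Ciita, Nlrc5, Tap1, Tap2, Tapbp, Tapbpl, Erap1 and Cd1d1. The choice went by name and not by any measured value, but it was made with earlier results of these data known. By role, 31 of them form a class I set of 2 classical heavy chains, 22 other heavy chains and 7 partners. A class II set of 11 holds 4 classical chains, 5 peptide editors and 2 partners. The remaining members are Cd1d1, the gene of a lipid-presenting class I-like chain, H2-Ke6, which lies in the complex but encodes a hydroxysteroid dehydrogenase, and 3 genes that GENCODE annotates as polymorphic pseudogenes (H2-Q5, H2-Bl and H2-T10). Of the 46 members for which a position in GRCm38 was looked up, 40 lie on chromosome 17.

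The 16 samples fell into 4 groups of 4, labelled cisplatin with NMN, cisplatin with NR, cisplatin, and PBS, and all mice were labelled wild type. Cisplatin is a platinum chemotherapy drug that is toxic to kidney tubules, and PBS is the saline control. NMN (nicotinamide mononucleotide) and NR (nicotinamide riboside), both precursors of the cofactor NAD, had been given by injection ahead of the drug. Kidneys were taken 3 days after cisplatin. The labels used here give no dose, strain, sex or age. Nothing in them ties the 4 libraries of a group to separate mice, and each p-value therefore speaks to the spread among these libraries, part of which may be technical.

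MHC class I molecules are made by nearly all nucleated cells. A heavy chain pairs with the light chain B2m and carries peptides that the proteasome cuts in the cytosol, that the pump Tap1-Tap2 moves into the endoplasmic reticulum, that Erap1 trims and that tapasin (Tapbp) helps to load, for inspection by CD8 T cells and natural killer cells. MHC class II molecules are made mainly by dendritic cells, macrophages and B cells. An alpha and a beta chain assemble on the invariant chain Cd74, take up peptides from the endosome with the help of H2-DM, and show them to CD4 T cells. Transcription of the 2 classes is driven by related regulators, Nlrc5 for class I and Ciita for class II, and interferons induce class I promoters through a response element near a kappa B site.

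The promoters of the members that the results turn on are shown first. The stretches were taken from RefSeq (GRCm38.p6), in which 35 members had an entry, and are written 5′ to 3′ on the strand of the gene. Searches covered 250 bases before each start on both strands. In the class I stretches capitals mark the palindromic kappa B site, which starts with GGGGATT, and the interferon response element GAANNGAAA, which reads TTTCACTTC on this strand. For B2m they mark a longer form of that element with 1 more A. In the class II stretches they mark CTNGCAAC, the core of the X box, and CTGATTGG, the Y box. The marked motifs do not overlap. The stretches are H2-K1 (chr17:34000420-34000473, minus strand), H2-Q4 (chr17:35379428-35379481, plus), H2-Q6 (chr17:35424662-35424715, plus), H2-Q7 (chr17:35439006-35439059, plus), B2m (chr2:122147526-122147579, plus), H2-Aa (chr17:34287858-34287916, minus) and H2-Eb1 (chr17:34305764-34305821, plus).
H2-K1: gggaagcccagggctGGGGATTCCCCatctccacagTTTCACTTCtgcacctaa
H2-Q4: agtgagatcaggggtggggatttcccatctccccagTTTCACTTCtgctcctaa
H2-Q6: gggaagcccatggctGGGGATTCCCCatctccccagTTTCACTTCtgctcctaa
H2-Q7: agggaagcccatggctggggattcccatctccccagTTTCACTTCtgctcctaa
B2m: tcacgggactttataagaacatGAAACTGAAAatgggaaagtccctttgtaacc
H2-Aa: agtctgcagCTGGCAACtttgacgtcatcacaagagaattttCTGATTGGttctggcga
H2-Eb1: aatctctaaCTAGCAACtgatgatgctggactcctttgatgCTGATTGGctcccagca

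The kappa B palindrome was found in 3 of 26 class I promoters (H2-K1, H2-D1 and H2-Q6), in 0 of 8 class II promoters, and in 0.0304% of the 32851 promoters in the table. GAANNGAAA was found in 8 of 26 class I promoters, 0 of 8 class II promoters and 6.31% of all. The longer form of the response element was found in 3 of 26 class I promoters (B2m, H2-T22 and H2-T23), 0 of 8 class II promoters and 2.98% of all. The X box letters were found in 4 of 8 class II promoters (H2-Aa, H2-Eb1, H2-Eb2 and H2-Ob), 2 of 26 class I promoters and 2.84% of all. The Y box letters were found in 4 of 8 class II promoters, 13 of 26 class I promoters and 3.83% of all. A match is a description of these letters. H2-K1 and H2-Q6, whose stretches carry the same marked letters, went in opposite directions below, and the part of these motifs in the results was not tested.

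The values are TPM, transcript abundances per length scaled to a fixed total, which keep no read depth. Library sums of the listed TPM ran from 860428 to 903678. Testing was limited to the 12960 genes that reached 1 TPM in 4 or more of the 16 libraries, among them 29 of the 47 members. Changes are limma estimates on log2(TPM + 1) with their standard error (SE), and a call needs a Benjamini-Hochberg adjusted p, taken over all 12960 genes, under 0.05. This scale understates changes of low genes. In cisplatin against PBS the median log2 change of all tested genes was 0.27, and it was 0.00 once libraries were rescaled by median-of-ratios, a scaling that centres the typical gene. The labelled tissue was checked on 5 proximal tubule markers, whose summed TPM was 2681 to 3422 with cisplatin and NMN, 2672 to 3123 with cisplatin and NR, 133 to 152 with cisplatin, and 3933 to 4358 with PBS. Cisplatin library 1 stood apart from the other cisplatin libraries in the class II chains, and PBS libraries 2 and 3 were higher than PBS libraries 1 and 4 in many of the genes below.

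The classes moved in opposite directions with cisplatin. In the class I set 17 of 31 members were tested, of which 10 rose, 2 fell and 5 were not called, and their median log2 change was 0.87. In the class II set 8 of 11 were tested, of which 0 rose, 5 fell and 3 were not called, with a median of -1.62. The 5 include H2-Ob, which passed the filter only through groups in which it is higher than with cisplatin. Of all tested genes 40.7% rose, 18.6% fell and 59.4% were called. After median-of-ratios scaling 29.3% of all genes rose and 28.6% fell, and the sets counted 10 higher and 3 lower for class I, and 0 higher and 6 lower for class II. The groups did not overlap for 10 of the 17 tested class I members and 5 of the 8 tested class II members, beside 50.8% of all tested genes.

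**Figure D1:**
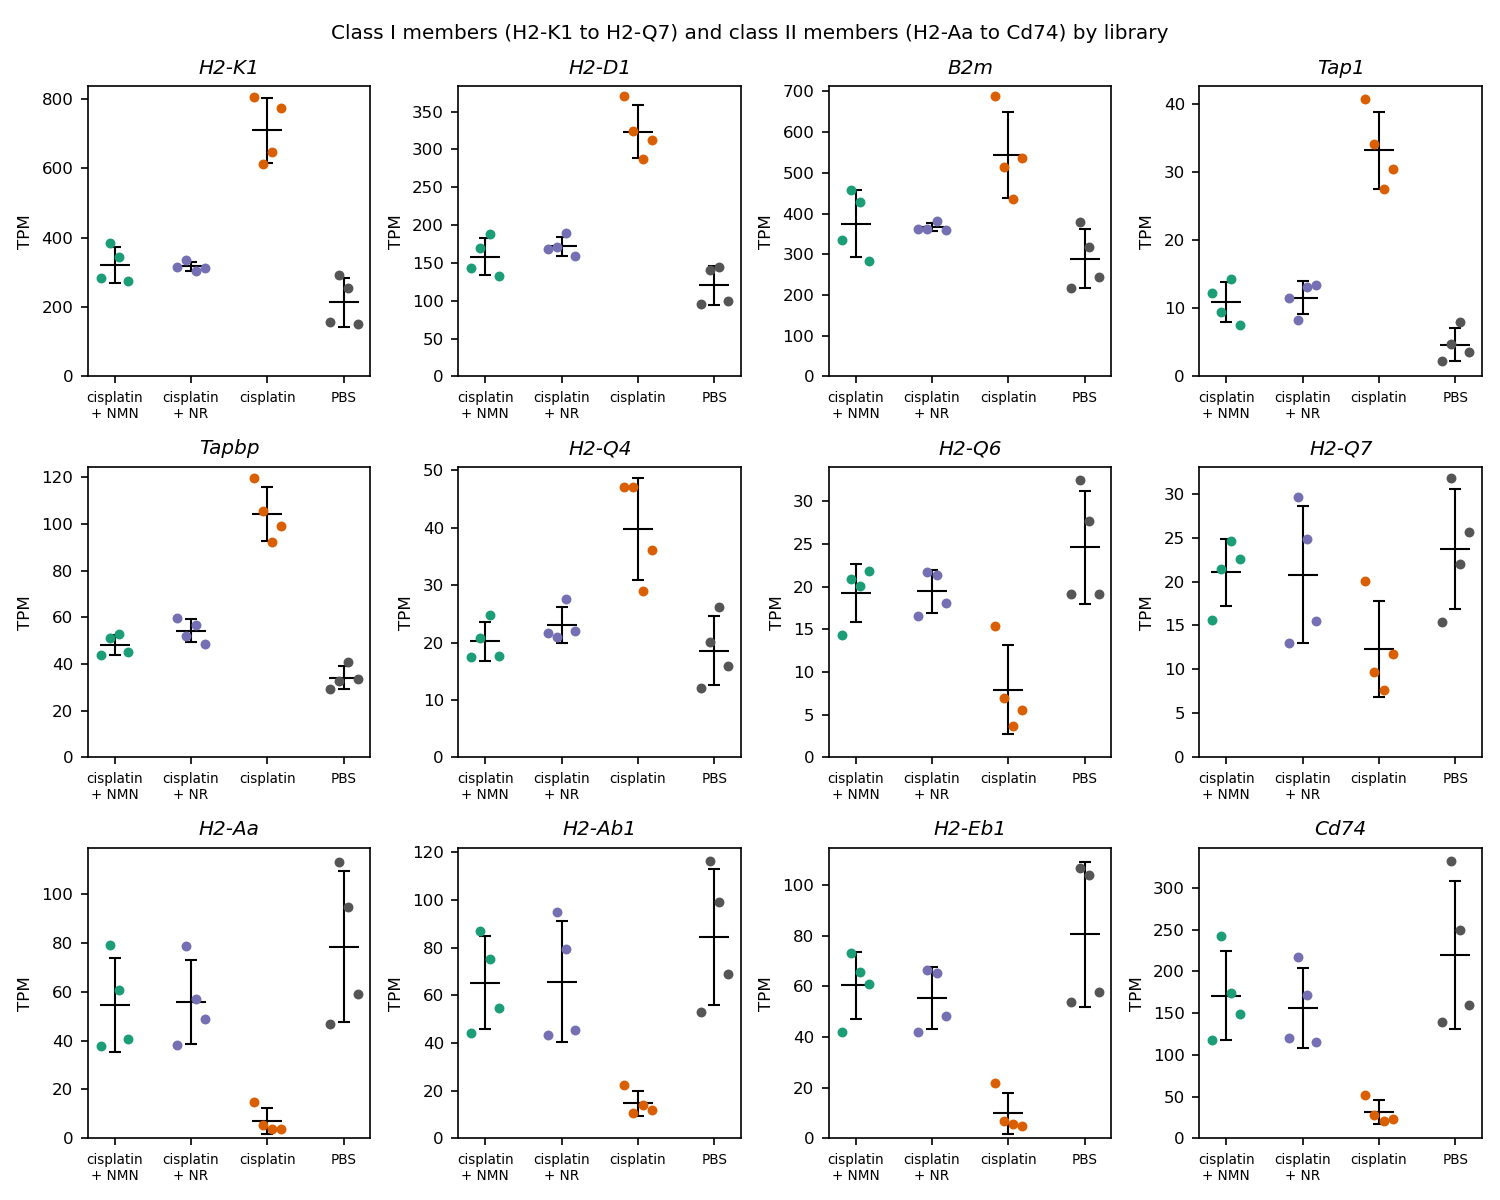
TPM of 8 class I and 4 class II members in each library (points), with the group mean and SD (bars, n = 4), for cisplatin with NMN, cisplatin with NR, cisplatin and PBS. H2-K1, H2-D1, B2m, Tap1, Tapbp and H2-Q4 had their highest group mean with cisplatin, and H2-Q6, H2-Q7, H2-Aa, H2-Ab1, H2-Eb1 and Cd74 had their lowest group mean there.

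The classical class I heavy chains, which present peptides to CD8 T cells, were the most abundant heavy chains in all 4 groups. H2-K1 (chr17:33996017-34000347) had 804, 612, 646 and 774 TPM in the 4 cisplatin libraries, against 156, 292, 254 and 150.2 TPM in the 4 PBS libraries. H2-D1 (chr17:35262730-35267499) had 370.1, 325, 287 and 312 TPM with cisplatin, against 95.2, 140.1, 145 and 100.3 TPM with PBS. Every cisplatin library was above every PBS library for both genes. H2-K1 rose 3.44-fold (log2 change 1.78 ± 0.18 SE, limma adjusted p = 1.48e-07) and H2-D1 rose 2.71-fold (1.44 ± 0.14, adjusted p = 9.49e-08). Summed, the pair averaged 1033 ± 118 TPM with cisplatin and 333 ± 96.1 TPM with PBS (SD, n = 4 each).

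Of the 22 other heavy chains 8 were tested: H2-Q2 and H2-Q4 rose, H2-Q6 and H2-Q7 fell, and 4 were not called. Of all tested genes 40.7% rose and 18.6% fell. The median log2 change of the 8 was 0.28, near the 0.27 of all tested genes. After median-of-ratios scaling 2 were called higher and 3 lower, beside 29.3% and 28.6% of all genes. H2-Q4 (chr17:35379617-35385290), a gene of the Qa region, had 47.2, 47.1, 28.9 and 36.1 TPM with cisplatin, against 12.1, 20.1, 26.3 and 15.9 TPM with PBS. Its groups did not overlap, and it rose 2.12-fold (log2 change 1.08 ± 0.20, limma adjusted p = 0.000163). H2-Q2 averaged 2.69 ± 1.08 TPM with cisplatin and 0.945 ± 0.688 TPM with PBS (SD, n = 4 each), with overlapping groups (log2 change 0.95 ± 0.28, limma adjusted p = 0.00702).

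H2-Q6 and H2-Q7 encode Qa-2, a nonclassical class I antigen, and lie next to each other on chromosome 17 (chr17:35424850-35430055 and chr17:35439155-35443773). H2-Q6 had 15.4, 6.96, 3.66 and 5.58 TPM in the cisplatin libraries, against 19.1, 32.5, 27.7 and 19.1 TPM in the PBS libraries. The groups did not overlap, with cisplatin library 1 nearest to PBS. H2-Q6 fell 3.14-fold (log2 change -1.65 ± 0.28, limma adjusted p = 7.67e-05), and without cisplatin library 1 the log2 change was -2.00 ± 0.22. H2-Q7 was picked out after its values were seen, as the neighbour of H2-Q6: it had 20.1, 9.73, 7.64 and 11.7 TPM with cisplatin, against 15.4, 31.8, 22 and 25.6 TPM with PBS. Its groups overlapped through cisplatin library 1 and PBS library 1 (log2 change -0.93 ± 0.28, limma adjusted p = 0.00902). These near copies share sequence: of the 50-base words in its transcripts, 32.0% for H2-Q6, 26.4% for H2-Q7, 21.8% for H2-Q4, 12.8% for H2-D1 and 9.63% for H2-K1 also occur in transcripts of another gene. The labels do not say how the authors' counting split such reads, so the values of the H2-Q and H2-T genes are uncertain.

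The 4 tested heavy chains without a call were H2-T22, H2-T23, H2-T24 and H2-M3. H2-T23, which encodes Qa-1, a ligand of the natural killer receptor NKG2A, averaged 105 ± 22.6 TPM with cisplatin and 82.7 ± 4.33 TPM with PBS (SD, n = 4 each; log2 change 0.31 ± 0.14, limma adjusted p = 0.0612). H2-T22, which shares 34.5% of its 50-base words with other genes, averaged 79.3 ± 5.68 TPM with cisplatin and 67.3 ± 10.7 TPM with PBS (log2 change 0.24 ± 0.12, limma adjusted p = 0.0994). After median-of-ratios scaling the estimates for H2-T22 and H2-T23 were -0.07 and -0.01, and H2-T24, at 0.667 ± 0.512 TPM with cisplatin and 1.19 ± 0.291 TPM with PBS, was called lower (limma adjusted p = 0.0406 on that scaling, 0.129 without it). H2-M3, which presents formylated peptides, averaged 2.38 ± 0.681 TPM with cisplatin and 1.36 ± 0.390 TPM with PBS (limma adjusted p = 0.0676).

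The makeup of the heavy chain transcripts can be read as shares. H2-K1 made up 55.1% ± 3.15 of the summed heavy chain TPM (27 genes, the pseudogenes included) with cisplatin and 37.5% ± 4.89 with PBS (SD, n = 4 each). H2-D1 made up 25.2% ± 1.54 with cisplatin and 21.6% ± 0.447 with PBS. The share of H2-T23 was 8.08% ± 1.32 with cisplatin and 15.3% ± 2.87 with PBS. H2-Q6 made up 0.591% ± 0.323 with cisplatin and 4.39% ± 0.339 with PBS, and H2-Q7 0.930% ± 0.303 with cisplatin and 4.28% ± 1.04 with PBS. Ranges over libraries did not overlap between cisplatin and PBS for any of these 5 genes. These shares were not tested.

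Of the 7 class I partners 6 rose with cisplatin, beside 40.7% of all tested genes. B2m (chr2:122147686-122153083), the light chain of all class I molecules, had 689.7, 515, 436 and 537 TPM with cisplatin, against 217, 379, 317 and 243 TPM with PBS. The groups did not overlap, and B2m rose 1.90-fold (log2 change 0.93 ± 0.18, limma adjusted p = 0.000206). Tap1 (chr17:34187553-34197225), a subunit of the peptide pump, had 40.7, 34.1, 27.6 and 30.4 TPM with cisplatin, against 2.30, 4.72, 7.92 and 3.62 TPM with PBS. Its rise of 6.41-fold was the largest among the 29 tested members (log2 change 2.68 ± 0.25, limma adjusted p = 6.1e-08), and its groups were far apart. The other pump subunit, Tap2, had 23.7, 25.6, 15.1 and 22.1 TPM with cisplatin, against 5.52, 10.2, 9.16 and 7.59 TPM with PBS. It rose 2.49-fold (log2 change 1.31 ± 0.18, limma adjusted p = 4.31e-06) without overlap.

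Tapasin (Tapbp), which holds empty class I molecules at the pump, had 119.9, 106, 92.3 and 99.3 TPM with cisplatin, against 29.5, 32.5, 41.0 and 33.6 TPM with PBS. It rose 3.00-fold (log2 change 1.59 ± 0.12, limma adjusted p = 2.47e-09). Tapbpl, which encodes a second peptide editor of class I, had 11.4, 11.6, 10.1 and 8.34 TPM with cisplatin, against 4.05, 5.85, 5.92 and 5.11 TPM with PBS (log2 change 0.87 ± 0.15, limma adjusted p = 5.72e-05). The aminopeptidase gene Erap1 had 10.3, 10.3, 16.5 and 11.7 TPM with cisplatin, against 5.06, 5.73, 7.34 and 6.79 TPM with PBS (log2 change 0.85 ± 0.18, limma adjusted p = 0.000641). None of these 3 genes overlapped between the groups. Nlrc5, the transcriptional activator of class I genes, had 3.05, 2.62, 3.21 and 4.23 TPM with cisplatin, against 1.20, 2.38, 3.5 and 0.820 TPM with PBS. PBS library 3 lay inside the cisplatin range, and the difference missed the threshold (log2 change 0.60 ± 0.26, limma adjusted p = 0.0505). The call on Nlrc5 changed with the libraries and settings used: the adjusted p was 0.0456 without trend and robust variances, 0.00736 without PBS library 3, 0.0414 without PBS library 2 and 0.0478 without cisplatin library 2, and 0.0494 and 0.0489 when NMN library 3 or NR library 4 was left out of the shared spread.

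**Figure D2:**
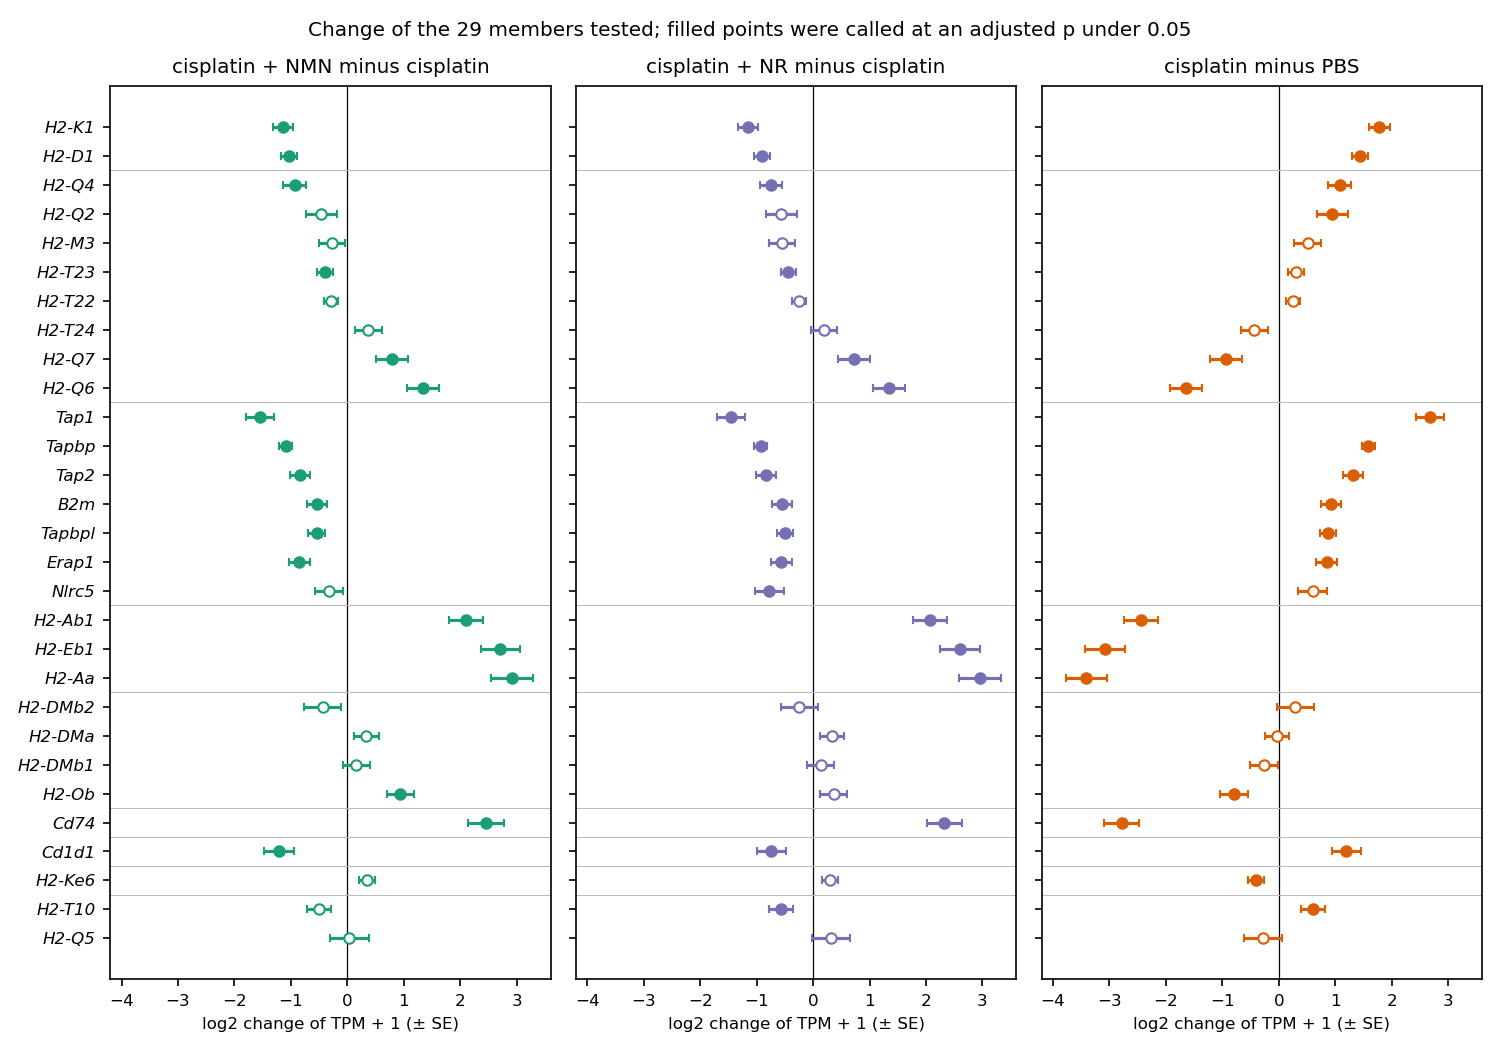
Log2 change of TPM + 1 (points, ± SE) for the 29 tested members, grouped by role, in cisplatin with NMN minus cisplatin, cisplatin with NR minus cisplatin, and cisplatin minus PBS. Filled points passed an adjusted p of 0.05. H2-K1 at 1.78 and Tap1 at 2.68 lie on the right in cisplatin minus PBS, and H2-Aa at -3.40 and Cd74 at -2.78 on the left.

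All 3 tested classical class II chains fell with cisplatin, beside 18.6% of all tested genes. H2-Aa (chr17:34282744-34287823), the alpha chain of I-A, had 14.8, 5.63, 4.00 and 3.75 TPM in the cisplatin libraries, against 46.8, 113, 94.7 and 58.9 TPM in the PBS libraries. It fell 10.6-fold (log2 change -3.40 ± 0.37, limma adjusted p = 5.75e-07). Its partner chain H2-Ab1 (chr17:34257689-34269419) had 22.2, 10.4, 13.9 and 11.9 TPM with cisplatin, against 53.1, 116, 99.1 and 69.0 TPM with PBS. H2-Ab1 fell 5.43-fold (log2 change -2.44 ± 0.30, limma adjusted p = 2.17e-06). H2-Eb1 (chr17:34305867-34316674), the beta chain of I-E, had 22, 6.81, 5.75 and 4.86 TPM with cisplatin, against 54, 107, 103.9 and 57.8 TPM with PBS. H2-Eb1 fell 8.48-fold (log2 change -3.08 ± 0.35, limma adjusted p = 1.12e-06). None of the 3 overlapped between the groups, and cisplatin library 1 was the highest cisplatin library for each. Without it the log2 changes were -3.79 for H2-Aa, -2.65 for H2-Ab1 and -3.53 for H2-Eb1. The second beta chain gene, H2-Eb2, stayed at or under 0.09 TPM in all 16 libraries.

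The invariant chain Cd74, which occupies the groove of new class II molecules and guides them to the endosome, had 52.1, 28.3, 21.1 and 23.5 TPM with cisplatin, against 139.7, 332, 249 and 159 TPM with PBS. It fell 6.87-fold without overlap (log2 change -2.78 ± 0.31, limma adjusted p = 9.35e-07). Ciita, the master regulator of class II transcription, was listed at 0, 0.18, 0 and 0.06 TPM with cisplatin, against 0.97, 1.32, 0.89 and 0.92 TPM with PBS. The libraries did not overlap, but Ciita reached 1 TPM in only 2 of the 16 libraries and did not pass the filter. In a fit with no minimum, over 18236 genes, its log2 change was -0.93 ± 0.16 (limma adjusted p = 0.000173).

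Among the 4 tested peptide editors of class II 0 rose and 1 fell, beside 40.7% higher and 18.6% lower of all tested genes. H2-DM, encoded by H2-DMa and H2-DMb1 or H2-DMb2, exchanges the remnant of the invariant chain for peptide. H2-DMa averaged 7.21 ± 1.65 TPM with cisplatin and 7.5 ± 2.37 TPM with PBS (SD, n = 4 each), with overlapping libraries (log2 change -0.03 ± 0.22, limma adjusted p = 0.914). H2-DMb1 averaged 9.98 ± 3.09 TPM with cisplatin and 12.2 ± 3.64 TPM with PBS (log2 change -0.26 ± 0.24, limma adjusted p = 0.370); after median-of-ratios scaling it was called lower (-0.55, adjusted p = 0.0241). H2-DMb2 averaged 1.48 ± 0.635 TPM with cisplatin and 1.02 ± 0.573 TPM with PBS (limma adjusted p = 0.463). H2-Ob, a chain of the H2-DM inhibitor H2-O that is best known from B cells, fell: it averaged 0.200 ± 0.254 TPM with cisplatin and 1.09 ± 0.497 TPM with PBS (log2 change -0.80 ± 0.25, limma adjusted p = 0.00952). H2-Ob reached 1 TPM in 3 NMN and 2 PBS libraries and in 0 of the cisplatin libraries, so it passed the filter only through groups in which it is higher than with cisplatin. H2-Oa, its partner chain, stayed at or under 1.21 TPM in all libraries and was not tested. Summed TPM of the 3 H2-DM genes was 13.9 to 20.5 with cisplatin and 13.8 to 25.6 with PBS, whereas that of the 4 classical class II chains was 20.5 to 59.1 with cisplatin and 154 to 337 with PBS.

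Outside the 2 sets, Cd1d1 (chr3:86995834-86999441) had 4.30, 3.22, 3.63 and 3.38 TPM with cisplatin, against 0.590, 1.73, 1.12 and 0.790 TPM with PBS. The groups did not overlap, and it rose 2.29-fold (log2 change 1.20 ± 0.26, limma adjusted p = 0.000705). H2-Ke6, the dehydrogenase gene of the complex, had 85.6, 91.8, 86.2 and 103.7 TPM with cisplatin, against 103.8, 136, 136 and 115 TPM with PBS. The groups touched without overlapping (log2 change -0.41 ± 0.14, limma adjusted p = 0.0188), and leaving out PBS library 2 or 3 gave adjusted p of 0.0560 and 0.0554. Among the pseudogenes H2-T10 averaged 1.14 ± 0.295 TPM with cisplatin and 0.400 ± 0.144 TPM with PBS and was called higher (limma adjusted p = 0.0201). It reached 1 TPM in only 3 cisplatin libraries and 1 NMN library. Without the group in which it is highest it would not have passed the filter, so its call carries little weight. It also shares 32.9% of its 50-base words with other genes, most of them with H2-T22. H2-Q5 was not called (limma adjusted p = 0.494), and H2-Bl was not tested.

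The 18 untested members were Ciita, H2-Eb2, H2-Oa, H2-Bl and 14 heavy chains. Of these heavy chains, 6 of the H2-M family were listed at 0 in every library: H2-M10.1, H2-M10.2, H2-M10.3, H2-M10.4, H2-M10.6 and H2-M11. H2-Q10, known as a secreted class I chain made by the liver, averaged 1.09 ± 0.539 TPM with cisplatin and 0.168 ± 0.154 TPM with PBS, and was called higher in the fit with no minimum (log2 change 0.81 ± 0.19, limma adjusted p = 0.00236); 19.0% of its 50-base words occur in other genes. The other untested heavy chains, H2-M1, H2-M2, H2-M5, H2-M9, H2-M10.5, H2-Q1 and H2-T3, stayed at or under 0.720 TPM.

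The balance of the classes was measured within each library as the log2 ratio of B2m to Cd74, each as TPM + 1, which depends little on the library total. It averaged 1.16 ± 0.293 with cisplatin and NMN, 1.27 ± 0.420 with cisplatin and NR, 4.15 ± 0.326 with cisplatin and 0.444 ± 0.214 with PBS (SD, n = 4 each). On the scale of TPM + 1, B2m was 13.0 to 21.9 times Cd74 in the cisplatin libraries and 1.14 to 1.55 times Cd74 in the PBS libraries. In 5 of the 6 comparisons the libraries of the groups did not overlap: cisplatin minus PBS differed by 3.71, NMN minus cisplatin by -2.99, NR minus cisplatin by -2.88, NMN minus PBS by 0.71 and NR minus PBS by 0.83. Each had an exact two-sided permutation p of 0.0286, the smallest that 4 against 4 libraries can give, and an adjusted p of 0.0343 over the 6 comparisons. NMN minus NR was -0.12, with overlapping libraries (exact permutation p = 0.686, adjusted p = 0.686). The comparisons with cisplatin share the same cisplatin libraries, and those with PBS the same PBS libraries. With any 1 of the PBS libraries left out, NR minus PBS lay between 0.74 and 0.89 and its adjusted p was 0.0686 (exact permutation test).

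**Figure D3:**
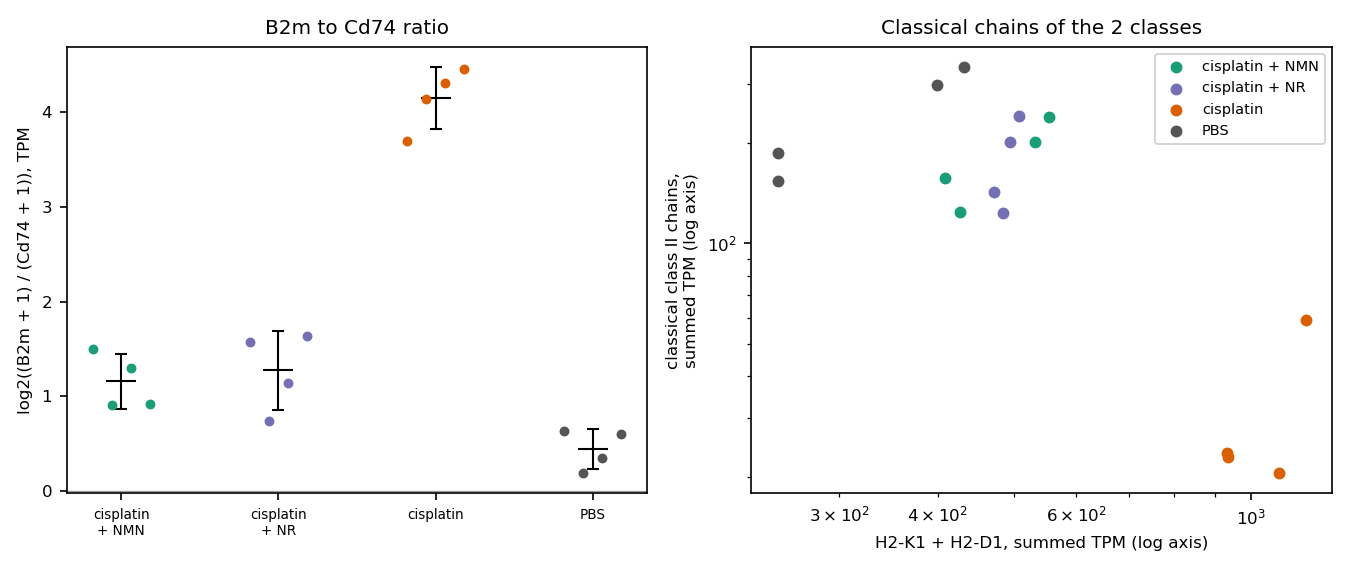
Left, the log2 ratio of B2m to Cd74 in each library (points) with the group mean and SD (n = 4). Right, the summed TPM of the classical class II chains against that of H2-K1 and H2-D1, both on log axes, 1 point per library. The cisplatin libraries average 4.15 on the left, against 0.444 for PBS, and on the right they sit at 933 to 1174 TPM of class I and 20.5 to 59.1 TPM of class II.

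Genes of the class I route outside the rule were read from lists of pathway genes, beside the same 40.7% higher and 18.6% lower of all tested genes. Of the immunoproteasome, the inducible proteasome form that favours class I peptides, 5 of 5 genes rose, with a median log2 change of 1.40. Psmb10 averaged 81.8 ± 11 TPM with cisplatin and 26.1 ± 6.91 TPM with PBS (SD, n = 4 each; log2 change 1.64 ± 0.18, limma adjusted p = 3.14e-07). The proteasome activator gene Psme1 averaged 126.5 ± 12.7 TPM with cisplatin and 53.3 ± 5.58 TPM with PBS (log2 change 1.23 ± 0.12, limma adjusted p = 1.13e-07). Psmb8 and Psme2 averaged 28.2 ± 5.87 and 210 ± 109 TPM with cisplatin, against 10.8 ± 4.91 and 56.3 ± 13.4 TPM with PBS. The constitutive catalytic subunits Psmb5, Psmb6 and Psmb7 rose too (3 of 3, median 0.73; 2 of 3 after median-of-ratios scaling). Of 5 folding and loading factors 4 rose (Canx, Pdia3, Hspa5 and Lnpep), but after median-of-ratios scaling 0 rose and 1, the chaperone gene Calr, fell.

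Of the class I-like chains outside the complex 5 of 6 were tested, of which 1 rose and 2 fell. Procr, the endothelial protein C receptor, averaged 8.90 ± 1.39 TPM with cisplatin and 1.49 ± 0.780 TPM with PBS (log2 change 2.05 ± 0.27, limma adjusted p = 3.23e-06). Azgp1, a zinc-binding glycoprotein, averaged 8.36 ± 2.20 TPM with cisplatin and 61.9 ± 4.55 TPM with PBS (log2 change -2.78 ± 0.16, limma adjusted p = 9.94e-11). Fcgrt, the heavy chain of the neonatal Fc receptor that recycles IgG and albumin with B2m, averaged 102 ± 6.16 TPM with cisplatin and 177 ± 11.9 TPM with PBS (log2 change -0.80 ± 0.10, limma adjusted p = 1.31e-06). Of 5 ligands of the natural killer receptor NKG2D only Raet1e was tested: it had 1.13 to 2.87 TPM with cisplatin and was listed at 0 in every PBS library. It reached 1 TPM in the 4 cisplatin libraries and in 0 others, so it passed the filter only through the group in which it is high, and no test is given.

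Of the interferon gamma route 8 of 10 genes were tested and all 8 rose (5 after median-of-ratios scaling), with a median log2 change of 0.79. The receptor gene Ifngr1 averaged 57.7 ± 8.77 TPM with cisplatin and 12.5 ± 2.75 TPM with PBS (log2 change 2.13 ± 0.18, limma adjusted p = 9.41e-09). Ifngr2 averaged 24.1 ± 2.86 TPM with cisplatin and 5.96 ± 0.732 TPM with PBS (log2 change 1.85 ± 0.16, limma adjusted p = 1.56e-08). Irf1, a transcription factor that binds the class I response element, averaged 16.5 ± 1.61 TPM with cisplatin and 5.42 ± 1.80 TPM with PBS (log2 change 1.49 ± 0.20, limma adjusted p = 3.65e-06). The ligand gene Ifng was listed at 0 in every cisplatin and every PBS library.

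Genes of the class II route outside the rule were read in the same way, beside 40.7% higher and 18.6% lower of all tested genes. Of 6 genes of class II proteolysis 4 rose and 0 fell (3 and 1 after median-of-ratios scaling). Ctsd, a lysosomal protease, averaged 1297 ± 120 TPM with cisplatin and 306 ± 20.5 TPM with PBS (log2 change 2.08 ± 0.12, limma adjusted p = 5.96e-11), and Ifi30, the thiol reductase that unfolds antigens, averaged 184 ± 18.4 TPM with cisplatin and 56.2 ± 3.99 TPM with PBS (log2 change 1.69 ± 0.10, limma adjusted p = 6.21e-11). Ctss, the cathepsin that cuts the invariant chain in antigen-presenting cells, averaged 5.18 ± 4.77 TPM with cisplatin and 8.48 ± 3.78 TPM with PBS (limma adjusted p = 0.0947, and called lower after median-of-ratios scaling). Of 7 factors that bind class II promoters 3 rose (Rfx5, Nfya and Nfyb) and 1 fell (Nfyc), near the shares of all tested genes. After median-of-ratios scaling 2 rose and 1 fell. Of 3 tested genes of class II turnover 2 fell, both of them ubiquitin ligase genes, and 1 was not called. March1 fell to 0.295 ± 0.171 TPM with cisplatin, against 1.29 ± 0.376 TPM with PBS, and March8 to 30.1 ± 2.55 TPM, against 46.4 ± 8.80 TPM. March1 reached 1 TPM in 3 PBS libraries, 1 NMN library, 1 NR library and 0 cisplatin libraries. It passed the filter only through groups in which it is higher than with cisplatin, so its call carries little weight. Among 6 costimulation genes 3 were tested, of which Cd274, the gene of PD-L1, rose to 3.08 ± 1.04 TPM with cisplatin, against 1.14 ± 0.376 TPM with PBS (limma adjusted p = 0.000735).

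Cell type markers were read beside the same 40.7% higher and 18.6% lower of all tested genes (29.3% and 28.6% after median-of-ratios scaling). These are bulk samples, in which fewer cells of a type and less RNA per cell cannot be told apart. Of 6 endothelial markers 5 fell with cisplatin (6 after median-of-ratios scaling), and their summed TPM was 60.6 to 125 with cisplatin and 140 to 276 with PBS. Of 3 markers of all leukocytes 2 fell, with sums of 7.95 to 20.9 with cisplatin and 10.03 to 28.6 with PBS. Of 8 macrophage markers 3 fell and 1, Cd68, rose (4 and 1 after median-of-ratios scaling). Their sum was 118 to 172 TPM with cisplatin and 41.9 to 89.2 TPM with PBS. Without Cd68 it was 22.2 to 65.7 with cisplatin and 40.0 to 85.6 with PBS. Csf1r, the receptor that macrophages need to survive, averaged 5.15 ± 0.884 TPM with cisplatin and 17.3 ± 4.61 TPM with PBS (log2 change -1.56 ± 0.17, limma adjusted p = 2.43e-07).

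The counts that follow stand beside the same 40.7% higher and 18.6% lower of all tested genes. Of 8 dendritic cell markers 4 were tested and 1 fell, near that share: Cd209a averaged 0.0625 ± 0.125 TPM with cisplatin and 1.90 ± 0.601 TPM with PBS (limma adjusted p = 0.000148). The summed TPM of the 8 dendritic cell markers was 2.21 to 7.76 with cisplatin and 7.61 to 10.7 with PBS, and Ccr7 was at 0 in every cisplatin library. Of 5 B cell markers 1 passed the filter, Cd79a, with 1.26 ± 0.198 TPM with cisplatin and 0.340 ± 0.114 TPM with PBS; it passed only through the 4 cisplatin libraries, and no test is given. The B cell sum was 1.30 to 1.84 TPM with cisplatin and 0.850 to 1.96 TPM with PBS, with Ms4a1 at 0 in every cisplatin library. Of 7 T and natural killer cell markers 1 was tested and not called, the sum was 0.140 to 2.81 TPM with cisplatin and 2.25 to 5.57 TPM with PBS, and Ncr1 was at 0 in every cisplatin library. Of 4 fat markers all 4 rose, with sums of 135 to 275 TPM with cisplatin and 24.9 to 71.6 TPM with PBS. All 5 proximal tubule markers fell. Among 4 markers of other kidney segments 1 rose and 2 fell, with sums of 610.3 to 1033 TPM with cisplatin and 819 to 1578 TPM with PBS. Cisplatin library 1, the highest cisplatin library for the class II chains, was also the highest for the endothelial, leukocyte, macrophage, dendritic and fat markers. The part of these cell types in the class I and class II results was not tested.

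**Figure D4:**
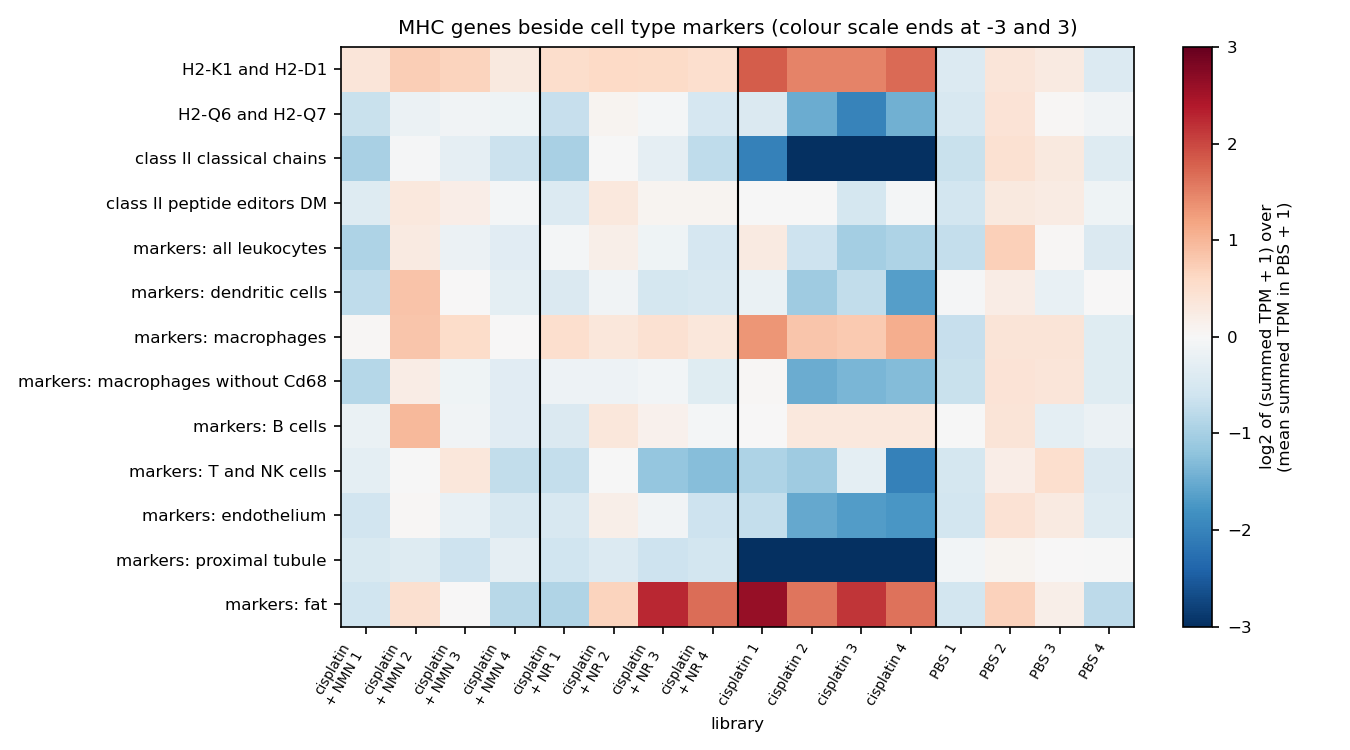
Summed TPM of MHC gene groups and of cell type marker lists in each library (columns), as log2 over the mean of the PBS libraries, with 1 added to each sum; the colour scale ends at -3 and 3. In the cisplatin columns the classical class II chains (20.5 to 59.1 TPM) and the endothelial markers (60.6 to 125 TPM) are blue, H2-K1 and H2-D1 (933 to 1174 TPM) are red, and the H2-DM genes are near white.

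With NMN given before cisplatin most called class I members were lower than with cisplatin alone, and the called class II members were higher. Of the 17 tested class I members 2 rose, 10 fell and 5 were not called against cisplatin, with a median log2 change of -0.54. Of the 8 tested class II members 5 rose and 0 fell, with a median of 1.52. The 5 again include H2-Ob, which passed the filter only through groups in which it is higher than with cisplatin. Of all tested genes 15.1% rose, 34% fell and 49.1% were called, and the median change of all genes was -0.23. After median-of-ratios scaling, on which 22.4% of all genes rose and 23.5% fell, the class I set counted 2 higher and 8 lower, and the class II set 6 higher and 0 lower. The NMN and cisplatin libraries did not overlap for 8 class I and 5 class II members, beside 44.3% of all tested genes. With NR 2 class I members rose and 11 fell, with a median of -0.56, and 4 class II members rose and 0 fell, with a median of 1.22. In this comparison 14.4% of all tested genes rose, 32.2% fell and 46.6% were called, with a median of -0.20. After median-of-ratios scaling, on which 21.4% of all genes rose and 22.4% fell, NR gave 2 higher and 9 lower in class I, and 5 higher and 0 lower in class II. The NR and cisplatin libraries did not overlap for 11 class I and 4 class II members, beside 41.8% of all tested genes. Both comparisons are made with the same 4 cisplatin libraries, whose values are given above.

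H2-K1 had 284, 384, 344 and 275 TPM with cisplatin and NMN, and 316, 337, 304 and 312 TPM with cisplatin and NR. All 8 libraries were below the cisplatin libraries, and H2-K1 fell 2.21-fold with NMN (log2 change -1.14 ± 0.18, limma adjusted p = 5.13e-05) and 2.22-fold with NR (-1.15 ± 0.18, adjusted p = 5.68e-05). H2-D1 had 143, 169, 188 and 133 TPM with NMN, and 168, 170.7, 189 and 159.8 TPM with NR. It fell 2.05-fold with NMN (log2 change -1.03 ± 0.14, limma adjusted p = 1.1e-05) and 1.87-fold with NR (-0.91 ± 0.14, adjusted p = 5.49e-05), again with no overlap. Tap1 had 12.3, 9.5, 14.3 and 7.53 TPM with NMN, and 11.5, 8.25, 13.1 and 13.5 TPM with NR. Tap1 fell 2.92-fold with NMN (log2 change -1.55 ± 0.25, limma adjusted p = 7.35e-05) and 2.73-fold with NR (-1.45 ± 0.25, adjusted p = 0.000161), without overlap in either.

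B2m had 334, 457, 429 and 282 TPM with NMN, and 363, 363, 380.6 and 359 TPM with NR. The NMN libraries overlapped those with cisplatin and the NR libraries did not. It fell 1.46-fold with NMN (log2 change -0.54 ± 0.18, limma adjusted p = 0.0167) and 1.47-fold with NR (-0.55 ± 0.18, adjusted p = 0.0162). Without cisplatin library 1 the adjusted p was 0.0666 with NMN and 0.0639 with NR, and without NMN library 4 it was 0.0675 with NMN. With median-of-ratios scaling it was 0.0774 with NMN and 0.0496 with NR, and with quantile scaling 0.0613 with NMN and 0.0894 with NR. Tapbp had 43.9, 51.3, 52.6 and 45.2 TPM with NMN, and 59.6, 52.2, 56.7 and 48.5 TPM with NR, and fell against cisplatin without overlap (log2 change -1.09 ± 0.12 with NMN and -0.93 ± 0.12 with NR, limma adjusted p = 7.99e-07 and 6.5e-06).

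Tap2 had 10.5, 11, 13.2 and 11 TPM with NMN, and 12, 10.4, 12.8 and 10.8 TPM with NR. It fell against cisplatin by 0.84 on the log2 scale in both comparisons (limma adjusted p = 0.000687 with NMN and 0.000825 with NR), with no overlap. H2-Q4 had 17.5, 20.9, 24.7 and 17.7 TPM with NMN, and 21.6, 20.9, 27.6 and 22 TPM with NR, and also fell without overlap (log2 change -0.93 ± 0.20 with NMN and -0.74 ± 0.20 with NR, limma adjusted p = 0.000957 and 0.00581). Tapbpl fell with both (log2 change -0.54 ± 0.15 with NMN and -0.50 ± 0.15 with NR, limma adjusted p = 0.00531 and 0.0103), its libraries having 5.92 to 7.71 TPM with NMN and 6.19 to 7.86 TPM with NR.

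Erap1 had 7.26, 6.06, 5.49 and 6.09 TPM with NMN, and 11.1, 6.04, 6.78 and 7.89 TPM with NR. NR library 1 lay inside the cisplatin range. The gene fell by 0.85 on the log2 scale with NMN (limma adjusted p = 0.000952) and by 0.56 with NR (adjusted p = 0.018). The NR call was lost with median-of-ratios scaling (adjusted p = 0.144), with quantile scaling (0.146) and without cisplatin library 3, NR library 2 or NR library 3 (adjusted p of 0.0697, 0.0670 and 0.0521). Nlrc5 had 2.19, 2.29, 3.41 and 1.82 TPM with NMN, and 1.27, 1.75, 2.16 and 0.910 TPM with NR. It was not called with NMN (log2 change -0.33 ± 0.26, limma adjusted p = 0.303) and fell with NR (-0.77 ± 0.26, adjusted p = 0.0188; 0.0587 without cisplatin library 4 and 0.0637 without NR library 4).

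H2-T23 had 73.0 to 83.3 TPM with NMN and 69.2 to 85.7 TPM with NR, and was called lower in both (limma adjusted p = 0.0218 and 0.0136). After median-of-ratios scaling neither call was made (adjusted p = 0.291 with NMN and 0.132 with NR). Cd1d1 had 1.15, 1.26, 1.36 and 0.390 TPM with NMN, and 0.730, 1.28, 2.61 and 3.12 TPM with NR. It fell 2.31-fold with NMN (log2 change -1.21 ± 0.26, limma adjusted p = 0.000914) and 1.67-fold with NR (-0.74 ± 0.26, adjusted p = 0.0274). NR libraries 3 and 4 were the highest of the NR group for Cd1d1 and had summed fat markers of 215 and 144 TPM, against 23.2 and 71.1 TPM in NR libraries 1 and 2. The part of fat in this result was not tested. The NR call was lost without cisplatin library 1, NR library 1 or NR library 2 (adjusted p of 0.0704, 0.110 and 0.0790) and after median-of-ratios scaling (0.0697) or with a pseudocount of 0.1 (0.0587).

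H2-Q6, which had fallen with cisplatin, had 14.3, 20.9, 20.1 and 21.8 TPM with NMN, and 16.5, 21.8, 21.3 and 18.1 TPM with NR. It rose 2.52-fold with NMN (log2 change 1.33 ± 0.28, limma adjusted p = 0.000858) and 2.55-fold with NR (1.35 ± 0.28, adjusted p = 0.000847), and only NMN library 1 lay below the highest cisplatin library. H2-Q7 averaged 21.0 ± 3.84 TPM with NMN and 20.8 ± 7.81 TPM with NR, with overlap in both (log2 change 0.79 ± 0.28 and 0.72 ± 0.28, limma adjusted p = 0.0275 and 0.0456). H2-Q6 and H2-Q7 were the 2 class I members that rose in each comparison.

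The class II chains were several times higher with either precursor than with cisplatin alone. H2-Aa had 37.7, 79.1, 60.8 and 40.8 TPM with NMN, and 38.2, 78.6, 56.9 and 48.9 TPM with NR. It rose 7.53-fold with NMN (log2 change 2.91 ± 0.37, limma adjusted p = 6.9e-06) and 7.76-fold with NR (2.96 ± 0.37, adjusted p = 7.72e-06). H2-Ab1 had 44.2, 87.1, 75.3 and 54.9 TPM with NMN, and 43.4, 95, 79.3 and 45.5 TPM with NR. H2-Ab1 rose 4.27-fold with NMN (log2 change 2.09 ± 0.30, limma adjusted p = 2.24e-05) and 4.20-fold with NR (2.07 ± 0.30, adjusted p = 3.09e-05). Every library with a precursor was above every cisplatin library for both chains.

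H2-Eb1 had 41.9, 73.3, 65.6 and 60.9 TPM with NMN, and 42.0, 66.6, 65.2 and 48.2 TPM with NR. H2-Eb1 rose 6.55-fold with NMN (log2 change 2.71 ± 0.35, limma adjusted p = 9.29e-06) and 6.04-fold with NR (2.60 ± 0.35, adjusted p = 1.83e-05). Cd74 had 117, 243, 174 and 149 TPM with NMN, and 121, 218, 172 and 115 TPM with NR, and rose 5.47-fold and 5.01-fold (log2 change 2.45 ± 0.31 and 2.33 ± 0.31, limma adjusted p = 7.74e-06 and 1.68e-05). Neither gene overlapped with cisplatin. Library 1 was the lowest and library 2 the highest of the NMN group for Cd74, and library 2 the highest of the NR group. The same libraries were the lowest and highest of the NMN group for the sums of the leukocyte markers (8.55 and 20.9 TPM summed) and the endothelial markers (137 and 211 TPM), and NR library 2 was the highest of its group for both (19.6 and 232 TPM). The part of these cells was not tested.

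Ciita was listed at 0.390, 1.36, 0.770 and 0.450 TPM with NMN, and 0.520, 0.790, 0.210 and 0.450 TPM with NR, in each case above all cisplatin libraries. In the fit with no minimum its log2 change was 0.69 ± 0.16 with NMN (limma adjusted p = 0.00315) and 0.48 ± 0.16 with NR (adjusted p = 0.0295). H2-Ob averaged 1.30 ± 0.411 TPM with NMN and 0.562 ± 0.391 TPM with NR: it rose with NMN (log2 change 0.94 ± 0.25, limma adjusted p = 0.00399) and was not called with NR (0.36 ± 0.25, adjusted p = 0.237). Its rise with NMN carries little weight, since it reached 1 TPM in 3 NMN libraries, 2 PBS libraries, 0 cisplatin libraries and 0 NR libraries. The direct comparison of NMN with NR did not call it. H2-DMa averaged 9.43 ± 2.54 TPM with NMN and 9.39 ± 2.12 TPM with NR, and was not called (limma adjusted p = 0.220 and 0.223), except after median-of-ratios scaling (adjusted p = 0.0375 and 0.0477). H2-DMb1 and H2-DMb2 were not called in either comparison or on either scaling.

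H2-Ke6 had 111, 129, 136 and 94.7 TPM with NMN, and 95.9, 142, 121 and 99.4 TPM with NR. It missed the threshold in both comparisons (log2 change 0.34 ± 0.14 and 0.30 ± 0.14, limma adjusted p = 0.0513 and 0.0881) and passed it after median-of-ratios scaling (adjusted p = 0.00143 and 0.00413) and after quantile scaling (0.00287 and 0.00525). The NMN call was also made with a minimum of 5 TPM (0.0445) and with only the compared groups (0.0419). With single libraries left out the NMN call was made without PBS 1, cisplatin 4, NMN 4, NR 1 or NR 2 (adjusted p of 0.0461, 0.0394, 0.0186, 0.0462 and 0.0370), and the NR call without NR 1 (0.0469). H2-T10 was called lower with NR (log2 change -0.57 ± 0.21, limma adjusted p = 0.0353) and not with NMN (-0.49 ± 0.21, adjusted p = 0.0603). It passed the filter only with the help of the cisplatin group, in which it is highest, so these tests carry little weight. After median-of-ratios scaling the NR call was lost (adjusted p = 0.0688).

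The pathway lists were read beside 15.1% of all tested genes called higher and 34% lower with NMN, and 14.4% higher and 32.2% lower with NR. Of the immunoproteasome 3 of 5 genes fell against cisplatin with NMN and 3 of 5 with NR (2 and 3 after median-of-ratios scaling), among them Psmb10 (log2 change -1.0 ± 0.18 with NMN and -1.15 ± 0.18 with NR). Of the interferon gamma route 7 of 8 tested genes fell with NMN and 5 of 8 with NR (4 and 4 after median-of-ratios scaling), among them Ifngr1 (-1.12 ± 0.18 and -0.99 ± 0.18) and Irf1 (-0.82 ± 0.20 and -0.85 ± 0.20). Of 6 class II proteolysis genes 1 rose (Ctss) and 3 fell with each precursor, Ctsd by 1.29 on the log2 scale with NMN and by 1.02 with NR. After median-of-ratios scaling 1 of the 6 rose and 2 fell with NMN, and 2 rose and 2 fell with NR. Of 3 tested genes of class II turnover March1 and March8 rose with both. The rise of March1 carries little weight, since it passed the filter only through groups in which it is higher than with cisplatin. Azgp1 and Fcgrt rose and Procr fell with both. Markers moved as well: 5 of 6 endothelial markers and 5 of 5 proximal tubule markers rose with each precursor, 2 of 8 macrophage markers rose with NMN and 3 with NR while Cd68 fell, and 1 of 3 leukocyte markers and 1 of 4 tested dendritic cell markers rose with each. Fat markers fell in 4 of 4 with NMN and 0 of 4 with NR. The part of these cells in the results was not tested.

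Against PBS some class I genes were called higher with either precursor, and no class II member was called. With NMN 3 class I members were called higher and 0 lower, namely H2-K1, Tap1 and Tapbp, beside 5.89% of all tested genes called higher, 0.116% lower and 6% in either direction. With NR 4 were called higher and 0 lower, H2-K1, H2-D1, Tap1 and Tapbp, beside 8.79% of all tested genes called higher, 1.21% lower and 10% in either direction. After median-of-ratios scaling these counts were again 3 and 4 higher, and 0 lower, beside 5.74% of all genes called higher and 0.705% lower with NMN, and 8.07% higher and 3.72% lower with NR. The libraries did not overlap with PBS for 2 class I members with NMN and 6 with NR, all higher, beside 10.2% and 14.8% of all tested genes. Tap1 was 2.20-fold higher with NMN (log2 change 1.14 ± 0.25, limma adjusted p = 0.00864) and 2.35-fold higher with NR (1.23 ± 0.25, adjusted p = 0.00321), with overlap between NMN and PBS and none between NR and PBS. Tapbp was 1.41-fold higher with NMN (log2 change 0.49 ± 0.12, limma adjusted p = 0.0147) and 1.58-fold higher with NR (0.66 ± 0.12, adjusted p = 0.000967), without overlap. H2-K1 was 1.56-fold higher with NMN (log2 change 0.64 ± 0.18, limma adjusted p = 0.0422) and 1.55-fold higher with NR (0.63 ± 0.18, adjusted p = 0.0315). H2-D1 was 1.45-fold higher with NR (log2 change 0.54 ± 0.14, limma adjusted p = 0.0206) and was not called with NMN (0.41 ± 0.14, adjusted p = 0.121).

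Several of these calls against PBS depended on single libraries or on settings. The adjusted p of H2-K1 with NMN and with NR was 0.0795 and 0.0584 with no minimum, 0.0710 and 0.0533 without trend and robust variances, and 0.146 and 0.0711 with only the compared groups. That of Tapbp with NMN was 0.0567 with only the compared groups. Without PBS library 1, NMN library 2 or NMN library 3 the class I count for NMN was 1, and without PBS library 1, PBS library 4 or NR library 3 the count for NR was 2. Without PBS library 1 the adjusted p of H2-K1 was 0.162 with NMN and 0.117 with NR, that of Tapbp with NMN was 0.0609, and that of H2-D1 with NR was 0.0826. Without PBS library 4 it was 0.159 and 0.116 for H2-K1 and 0.0799 for H2-D1 with NR. Without NMN library 2 or 3 it was 0.142 and 0.134 for H2-K1, and 0.0537 and 0.0656 for Tapbp. Without NR library 1, 2, 3 or 4 it was 0.0671, 0.0727, 0.0570 and 0.0591 for H2-K1, and without NR library 3 it was 0.0664 for H2-D1. The adjusted p of H2-K1 with NMN also passed 0.05 slightly when NMN library 1 (0.0536), cisplatin library 3 or 4 (0.0515 each), or NR library 1, 2, 3 or 4 (0.0526, 0.0523, 0.0506 and 0.0549) was left out, and H2-D1 with NMN was called without PBS library 3 (0.0494). Tap1 kept its call with any 1 library left out in both comparisons, as did Tapbp with NR.

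For the class II chains the estimates against PBS were below 0 and not called: -0.49 ± 0.37 with NMN and -0.45 ± 0.37 with NR for H2-Aa, and -0.33 ± 0.31 with NMN and -0.46 ± 0.31 with NR for Cd74 (limma adjusted p = 0.581, 0.537, 0.687 and 0.446). Their libraries overlapped those with PBS. At this spread a difference from PBS could not be detected, which does not show that the levels were alike. The classical class II chains summed to 124, 240, 202 and 157 TPM in NMN libraries 1 to 4. They summed to 124, 240, 201 and 143 TPM with NR and to 154, 337, 298 and 186 TPM with PBS. Each precursor library was thus below the PBS library of its number. The labels do not pair these numbers, and with a replicate block 0 class II members were called against PBS. The ratio of B2m to Cd74 given above was higher than in PBS in every library of both precursor groups.

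NMN and NR were not told apart by any member. In limma 0 of the 29 tested members, and 0% of all 12960 tested genes, were called in either direction, and this was also so after median-of-ratios scaling. At an unadjusted p under 0.05 there was 1 member, H2-Ob, and 370 of all tested genes. H2-Ob averaged 1.30 ± 0.411 TPM with NMN and 0.562 ± 0.391 TPM with NR (SD, n = 4 each, log2 change 0.58 ± 0.25). It reached 1 TPM in 3 NMN and 0 NR libraries and would not have passed the filter without the NMN group. H2-K1 averaged 322 ± 51.6 TPM with NMN and 317 ± 13.8 TPM with NR, and Cd74 171 ± 53.2 TPM with NMN and 156 ± 48.3 TPM with NR. The groups overlapped for all 29 tested members, and 1.64% of all tested genes did not overlap.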

How the data were processed

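Whole kidney RNA of 16 samples in 4 groups was sequenced. The authors deposited TPM values (transcript abundance scaled to the same total in every sample) per gene and sample, in 1 table of 23982 entries with 23935 symbols. The submitters' processing notes name Trim Galore, STAR 2.4.1d, HTSeq 0.6.1, DESeq2 1.10.1 and the build GRCm38 (mm10), without saying which step made the TPM or whether strand was used; reads of overlapping genes may therefore be mixed. TPM keep no read depth, so no counting error could be given. The members and gene lists were chosen with earlier results of these data known, as was the fit without PBS 1, cisplatin 1 and cisplatin 3.

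Groups were taken from the sample labels. With limma 3.58.1 (R 4.3.3, statmod 1.5.0) group means were fitted to log2(TPM + 1) over all 16 samples, with an intensity trend and robust variances, for genes at 1 TPM or more in at least 4 samples, leaving 12 residual degrees of freedom. The fit was tested on simulated data. Ratios of B2m to Cd74 were compared by exact two-sided permutation tests, adjusted over 6 comparisons. Values in every library were given for B2m, H2-K1, H2-D1, Tap1, Nlrc5, H2-Aa, H2-Ab1, H2-Eb1, Cd74, Ciita and Cd1d1, and for every other member called in cisplatin against PBS with groups that did not overlap and a higher group mean of at least 5 TPM; from each list of other pathway genes, up to 4 with the smallest adjusted p in cisplatin against PBS were named. A gene of 1 such list is not reported here by name. Positions came from GENCODE vM21 and promoters from RefSeq, both on GRCm38. Tables and plots were made with Python 3.11.15, numpy 2.4.6, pandas 2.3.3 and matplotlib 3.10.9. The alternatives were median-of-ratios and quantile scaling, a pseudocount of 0.1, a minimum of 5 TPM, no minimum, no trend or robust variances, only the groups compared, a replicate block, the fit without those 3 libraries, and each library left out in turn.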

Additional observations from a re-analysis of the deposited data

How the results depend on the processing

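Over the named members 102 values were refitted under 2538 alternatives. Of these 2456 kept their side of the threshold, among them 49 of values without a call that changed sign; 60 lost a call, 22 gained one and 0 called values changed sign. The class I count in cisplatin against PBS was 12 to 14 with any 1 library left out, with NMN against cisplatin 10 to 13 and with NR against cisplatin 10 to 13, and the class II counts stayed at 5, 5 and 4. Against PBS the class I count ran from 1 to 4 with NMN and from 2 to 4 with NR. It was 1 with NMN when only the compared groups were fitted. Without PBS 1, cisplatin 1 and cisplatin 3 it was 0 with NMN and 2 with NR. Without those 3 libraries the log2 ratio of B2m to Cd74 differed by 3.92 for cisplatin minus PBS (adjusted p = 0.12), by -3.14 and -3.02 for NMN and NR minus cisplatin, and by 0.78 and 0.89 for NMN and NR minus PBS (adjusted p = 0.1 each, exact permutation test); so few libraries cannot reach 0.05. With 1 library left out the ratio for NR minus PBS ran from 0.71 to 1.01. The cause of these shifts was not tested.

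The replicate numbers were not taken to pair the samples, since the labels give no shared origin and not every same-numbered pair deviated together. Of 24 same-numbered pairs 9 had a correlation of deviations over 0.1 (range -0.13 to 0.29). Each of 48 checks set a library against the 4 libraries of another group, and 29 found it closest to its own number. This is more often than a random pick among 4 would give, a hint from the data and not from the design. With the replicate block the class I counts were 13, 12 and 12 for cisplatin against PBS, NMN against cisplatin and NR against cisplatin, and 3, 4 and 0 for NMN against PBS, NR against PBS and NMN against NR. The class II counts with the block were 5, 5, 4, 0, 0 and 0 in the same order. With the block Nlrc5 was called in cisplatin against PBS (adjusted p = 0.0291), and H2-Ke6 with NMN and with NR against cisplatin (0.0224 and 0.0432). Without PBS 1, cisplatin 1 and cisplatin 3 the limma calls were lost for H2-Ke6 in cisplatin against PBS (0.0888), for Nlrc5, Cd1d1, Erap1 and Tapbpl with NR against cisplatin (0.0647, 0.149, 0.0977 and 0.0524), for H2-K1, Tap1 and Tapbp with NMN against PBS (0.176, 0.0514 and 0.0553), and for H2-K1 and H2-D1 with NR against PBS (0.130 and 0.0826).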
